A study of Mus musculus with 12 samples.

Results

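The immunoglobulin heavy chain variable (Ighv) segments were counted in RNA of mouse mandibular lymph nodes, the nodes that drain the ear and face. They were taken as every gene whose symbol starts with Ighv and whose biotype is IG_V_gene in the GENCODE M21 annotation, matched to the count table by Ensembl gene ID, which gave 113 segments among 56941 genes, all annotated on chromosome 12. The 70 Ighv pseudogenes were kept apart. The 12 libraries formed 4 groups of 3. KO_DTH and KO_se came from miR-451a knockout mice, and WT_DTH and WT_se came from wild-type mice. All mice were sensitized with 100 µl of 0.5% 1-fluoro-2,4-dinitrobenzene (DNFB), a hapten that couples to skin proteins, on the shaved abdomen on days 0, 1 and 2. The se nodes were harvested on day 9 with no challenge, and the DTH (delayed-type hypersensitivity) nodes on day 10, 24 hours after 20 µl of 1% DNFB was put on the left ear. Challenge and the later day cannot be told apart, no unsensitized node was among the samples, and the sources used here name neither the mouse strain nor the age, nor the cells in which miR-451a was lost. The question the design puts is how loss of this microRNA changes the response to DNFB, and here it was asked of the heavy chain segments: how much of them each node held, which segments made them up, and how evenly.

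A B cell builds its heavy chain gene by joining 1 V segment to a D and a J segment, and the V segment then encodes most of the antigen-binding domain of the antibody. Each B cell clone thus carries its own segment, and an expanded clone, above all when its cells turn into plasma cells that are filled with antibody RNA, raises the share of that segment in the tissue. In bulk RNA a segment's share counts transcripts, so more cells of a clone and more RNA per cell cannot be told apart.

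The segments the results turn on are shown by their germline sequence, taken from the GENCODE M21 transcripts (GRCm38) and cut to the 3′ end, in lower case. The capitals mark the 9 bases that encode tyrosine, tyrosine or phenylalanine, and the conserved cysteine that closes the segment's framework, searched on the coding strand as TAT or TAC, then TAT, TAC, TTT or TTC, then TGT, and found in 107 of the 113 segments. Ighv11-2 and Ighv12-3, whose shares separated the genotypes, are given by their last 290 bases, and they are known in mice as the segments of B-1a cells that bind phosphatidylcholine. The next 6 are given by their last 100 bases. Ighv1-26 was the most abundant segment over the 12 libraries. Ighv1-72, known as V186.2 from the response of C57BL/6 mice to nitrophenyl haptens, Ighv9-1 and Ighv1-85 stood high in 1 or 2 libraries. Ighv9-3 and Ighv1-76 differed between groups.
Ighv11-2: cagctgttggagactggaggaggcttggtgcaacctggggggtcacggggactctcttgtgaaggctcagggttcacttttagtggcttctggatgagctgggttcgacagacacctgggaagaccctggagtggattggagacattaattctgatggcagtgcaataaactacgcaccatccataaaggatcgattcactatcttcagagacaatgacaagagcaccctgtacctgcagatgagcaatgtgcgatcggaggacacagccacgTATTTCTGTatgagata
Ighv12-3: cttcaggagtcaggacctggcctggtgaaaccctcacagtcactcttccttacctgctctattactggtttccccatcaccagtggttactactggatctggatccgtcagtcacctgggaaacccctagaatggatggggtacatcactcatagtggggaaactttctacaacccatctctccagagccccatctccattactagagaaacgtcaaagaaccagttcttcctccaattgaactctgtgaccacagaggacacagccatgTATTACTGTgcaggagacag
Ighv1-26: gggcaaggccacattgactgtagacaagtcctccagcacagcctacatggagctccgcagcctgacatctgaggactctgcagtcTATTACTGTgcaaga
Ighv1-72: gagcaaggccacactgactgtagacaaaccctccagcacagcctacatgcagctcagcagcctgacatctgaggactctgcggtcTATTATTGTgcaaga
Ighv9-1: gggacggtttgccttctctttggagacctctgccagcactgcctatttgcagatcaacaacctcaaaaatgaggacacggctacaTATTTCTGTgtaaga
Ighv1-85: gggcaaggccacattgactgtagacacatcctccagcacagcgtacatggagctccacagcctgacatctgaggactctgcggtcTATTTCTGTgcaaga
Ighv9-3: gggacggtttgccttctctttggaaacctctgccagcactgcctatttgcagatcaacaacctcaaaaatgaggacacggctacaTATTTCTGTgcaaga
Ighv1-76: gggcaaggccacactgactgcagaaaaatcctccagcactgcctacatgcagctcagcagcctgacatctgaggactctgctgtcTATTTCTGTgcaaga
Over the last 290 bases Ighv11-2 and Ighv12-3 were 58.7% identical. Ighv11-2 differed at 4 bases from Ighv11-1, which held 9 counts in all, and the segment nearest to Ighv12-3 was Ighv3-6 at 76.8% identity. Among the 113 segments 58 had a nearest member of at least 95% identity, and the median nearest identity was 95.2%. Ighv1-62-2 and Ighv1-71 were identical over these bases. How the authors' counting split reads between such copies is not given in the sources used here. Single values are thus uncertain, in whichever family, where the nearest copy is this close. Ighv10-1, Ighv11-2 and Ighv14-3 are among such segments.

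Libraries held 36.9 to 58.4 M (mega) counts, of which 6523 to 33774 were Ighv counts. B cell genes were present in every library: 12 listed genes (Ms4a1, Cd79a and others) summed to 2046 to 3925 CPM (counts per M of the library size after edgeR's TMM scaling). Salivary gland genes, from the gland that lies beside this node, took 4.02 to 8.93% of counts in KO_DTH, 2.49 to 6.14% in KO_se, 1.87 to 2.93% in WT_DTH and 6.12 to 13.5% in WT_se. Mitochondrial transcripts averaged 10.7% of counts in KO_DTH, 13.9% in KO_se, 5.29% in WT_DTH and 17.3% in WT_se. Xist, made from the inactive X chromosome, exceeded the Y-linked Ddx3y in 2 of 3 KO_DTH, 1 of 3 KO_se, 2 of 3 WT_DTH and 1 of 3 WT_se libraries, so the genotypes were balanced for this mark and the states were not. By replicate number, Xist was low in replicate 1 of all 4 groups (11 to 19 counts) and high in replicate 3 of all 4 (22656 to 28600 counts), while replicate 2 was high in the DTH groups and low in the se groups. The targeted microRNA was not analysed here, and its neighbour Mir144 held 0 to 2 counts in the knockout libraries and 0 in the wild-type libraries, too few to check the genotype labels. Ddx3y ran the other way, with 5817 to 9303 counts in the libraries low in Xist and 15 to 377 in those high in it. Each group held both patterns, so its libraries do not all stem from 1 animal. Whether all 3 libraries of a group stem from separate animals is not given in the labels, so the tests measure the spread between these libraries, which may be technical in part.

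Knockout nodes held the most heavy chain segment RNA when sensitized and no more than wild-type nodes after challenge. In sensitized nodes Ighv counts made up 0.0578, 0.0475 and 0.0369% of all counts in KO_se and 0.0215, 0.0149 and 0.0205% in WT_se. All 3 KO_se libraries lay above all 3 WT_se libraries, with means of 0.0474 ± 0.0105% and 0.0190 ± 0.00354% (SD, n = 3 each), a ratio of 2.50. After challenge the values were 0.0188, 0.0275 and 0.0356% in KO_DTH and 0.0382, 0.0249 and 0.0266% in WT_DTH, and these groups overlapped, at a ratio of 0.914. Set against the sensitized nodes of its own genotype, KO_DTH lay below KO_se without overlap, at a ratio of 0.577, and WT_DTH lay above WT_se without overlap, at a ratio of 1.58. As a sum over members this share was given no test. On the TMM scale the summed Ighv level averaged 273 ± 73.7 CPM in KO_DTH, 478 ± 116 in KO_se, 260 ± 57.1 in WT_DTH and 215 ± 36.0 in WT_se. On that scale KO_se stayed apart from WT_se and from KO_DTH, whereas WT_DTH and WT_se overlapped. The same held for the share once salivary and mitochondrial counts were left out of its denominator.

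Part of these differences ran along with other B lineage RNA. Per 100 counts of the 8 heavy chain constant genes, Ighv counts numbered 10.4, 12.6 and 12.7 in KO_DTH, 16.6, 14.6 and 14.9 in KO_se, 12.9, 11.8 and 10.03 in WT_DTH and 13.1, 12.1 and 14.4 in WT_se. KO_se was thus above both KO_DTH and WT_se in all 3 libraries, by a much smaller margin than in the share of all counts. Per 100 counts of the B cell genes, the numbers were 6.75 to 9.25 in KO_DTH, 11.6 to 16.5 in KO_se, 5.97 to 8.67 in WT_DTH and 8.54 to 9.91 in WT_se. By both measures the challenged mean was below the sensitized mean in wild type too, with overlap (11.6 in WT_DTH and 13.2 in WT_se per 100 constant counts, 7.27 in WT_DTH and 9.32 in WT_se per 100 B cell counts), whereas the wild-type share of all counts was higher after challenge. The salivary share was lower in KO_se than in WT_se apart from 1 pair of libraries at 6.14% in KO_se and 6.12% in WT_se, and a fit of the single segments with a salivary term is given with their tests.

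**Figure D1:**
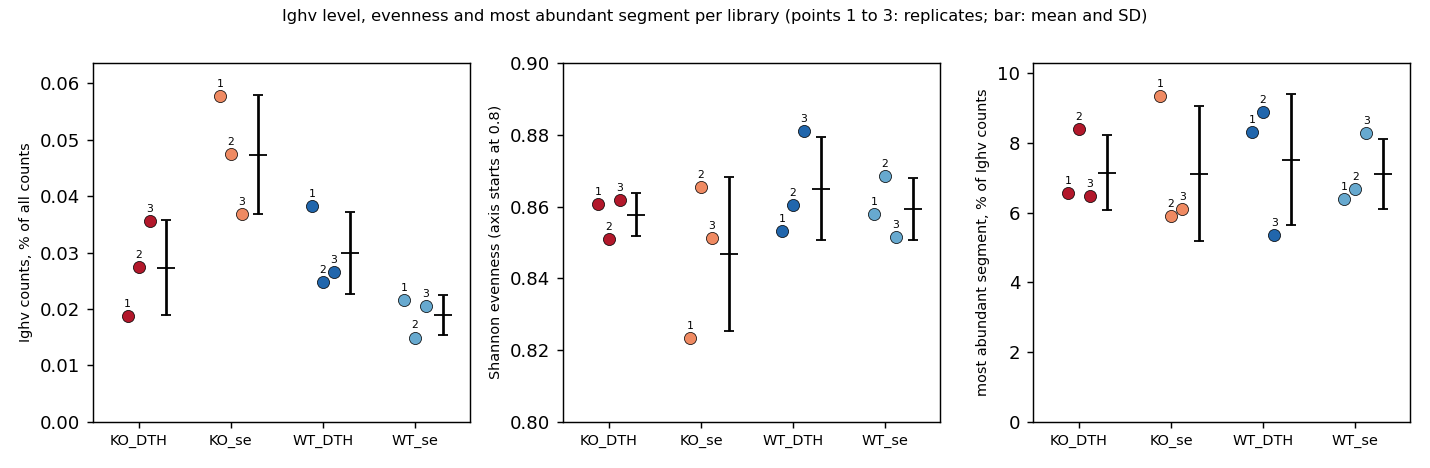
Each point is 1 library (1 to 3, replicate number), with the group mean and SD beside it; the panels show Ighv counts as a percentage of all counts, the Shannon evenness of the 113 segment shares on an axis that starts at 0.8, and the share of the most abundant segment. KO_se lies above WT_se in the first panel (0.0369 to 0.0578% and 0.0149 to 0.0215%), while evenness overlaps between all groups, with KO_se replicate 1 lowest at 0.823.

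Evenness did not separate the groups. Shannon evenness is the entropy of the segment shares divided by its highest possible value, so that 1 would mean 113 equal shares. It was 0.861, 0.851 and 0.862 in KO_DTH, 0.823, 0.865 and 0.851 in KO_se, 0.853, 0.861 and 0.881 in WT_DTH and 0.858, 0.869 and 0.851 in WT_se. The group means were 0.858 ± 0.00589, 0.847 ± 0.0214, 0.865 ± 0.0144 and 0.859 ± 0.00864 in the same order (SD, n = 3 each), and every pair of groups overlapped. The lowest value, that of KO_se replicate 1, was the repertoire of 49.0 equally used segments, and the highest, that of WT_DTH replicate 3, of 64.4. Without KO_se replicate 1 the difference of KO_se minus WT_se shrank to -0.000861, against -0.0126 with it. The segments of the kappa light chain, counted the same way, gave 0.858 to 0.882 in KO_DTH, 0.853 to 0.873 in KO_se, 0.864 to 0.885 in WT_DTH and 0.877 to 0.879 in WT_se. There KO_se lay below WT_se without overlap.

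The same few segments led in most nodes, and most of them belong to family 1, the large J558 family of the mouse. Ighv1-26 averaged 5.82% of Ighv counts over the 12 libraries and was first in KO_DTH replicates 1 and 3, WT_DTH replicates 1 and 3 and WT_se replicates 2 and 3. Its shares were 6.57, 4.24 and 6.47% in KO_DTH, 3.84, 4.51 and 3.73% in KO_se, 8.31, 5.55 and 5.37% in WT_DTH and 6.26, 6.67 and 8.28% in WT_se. All 3 KO_se shares were below all 3 WT_se shares, while its level overlapped, at 19.2 ± 4.71 CPM in KO_se and 15.2 ± 3.56 CPM in WT_se (edgeR log2 fold change 0.33 ± 0.31, adjusted p = 0.594). Next came Ighv9-3 with 4.07% on average, Ighv1-82 with 3.89%, Ighv1-72 with 3.88%, Ighv3-6 with 3.28%, Ighv1-64 with 2.81%, Ighv1-9 with 2.40%, Ighv8-8 with 2.32%, Ighv1-18 with 2.31% and Ighv1-80 with 2.26%. These shares are of counts, not divided by the length of the segments' transcripts. Within a library the 10 highest segments took 31.7 to 43.5% of Ighv counts, and 13 to 19 segments were enough for 50% of them.

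**Figure D2:**
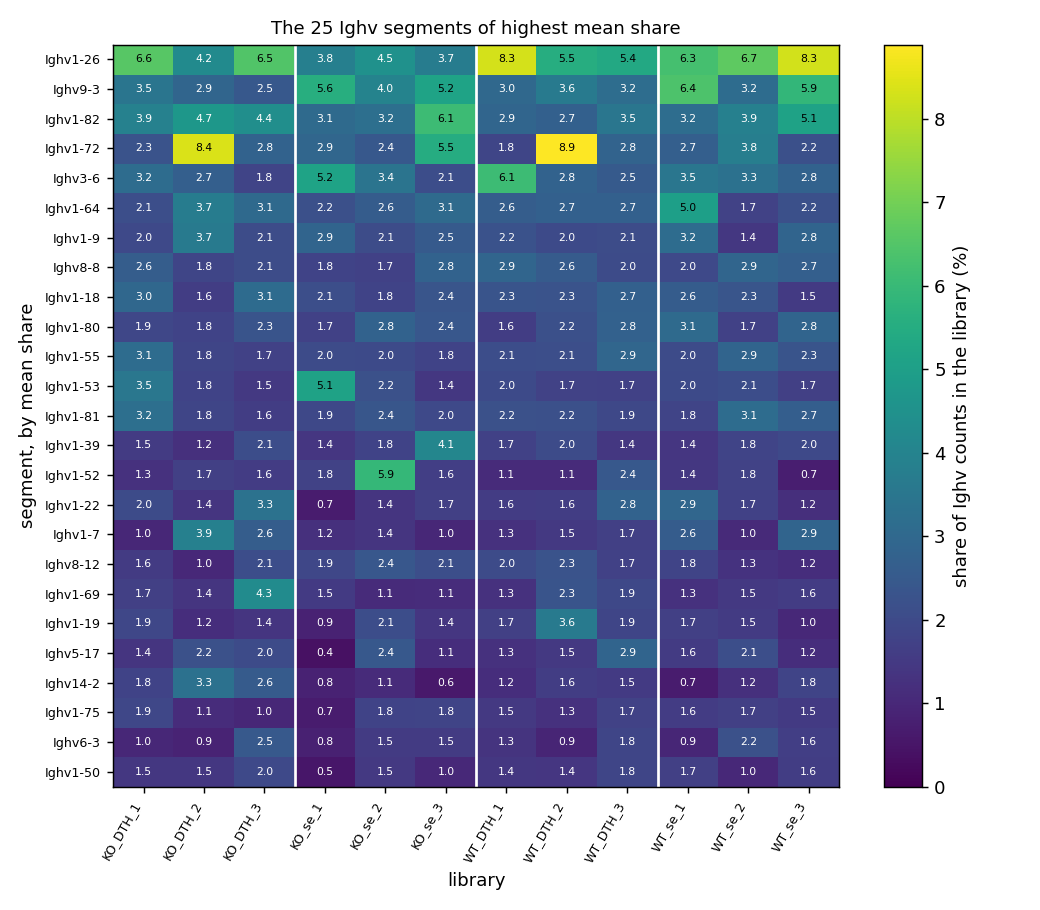
Share of Ighv counts, in percent, of the 25 segments of highest mean share (rows) in each of the 12 libraries (columns, grouped as KO_DTH, KO_se, WT_DTH and WT_se); colour and printed number give the same value. Ighv1-26 is high in most columns, whereas Ighv1-72 at 8.39% in KO_DTH replicate 2 and 8.89% in WT_DTH replicate 2, and Ighv1-52 at 5.91% in KO_se replicate 2, stand out in single libraries.

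Family 1 led in every library, and the smaller families varied more in proportion. Family 1, with 53 segments, took 55.7 to 67.1% of Ighv counts in every library, family 5 took 5.96 to 9.81%, family 9 took 3.76 to 15.5%, families 8, 3, 14 and 2 took 2.71 to 7.14% each, family 6 took 1.15 to 3.54% and family 10 took 0.838 to 3.40%. Families 4, 7, 11, 12, 13 and 15 reached at most 1.82% each, and the only member of family 16 had no count. The high value of family 9 was that of KO_se replicate 1, and the next highest was 7.79% in WT_se replicate 1. Of the 16 families, families 11 and 12 had shares that did not overlap between the 6 knockout and the 6 wild-type libraries, and no family separated the 6 challenged from the 6 sensitized libraries. Family 12 is Ighv12-3 alone, and family 11 is Ighv11-2 with Ighv11-1, which held 9 counts. This is therefore the same observation as that on Ighv11-2 and Ighv12-3 below. Along the chromosome, the 38 segments nearest to the constant genes took 20.4 to 31.3%, the next 37 took 30.1 to 38.7% and the farthest 38 took 37.5 to 46.8%. None of these blocks separated the genotypes or the states.

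Some segments were far higher in 1 library than in the rest. Of the 113 segments, 25 reached 3% of Ighv counts in at least 1 library, 16 of them in 1 library alone, and Ighv1-26 in all 12. Some of the 16 barely crossed it, such as Ighv1-18, at 3.09% with a second highest share of 2.98%. Just inside that threshold were Ighv1-47 at 3.07% and Ighv1-80 at 3.07%, and just outside Ighv8-8 at 2.91% and Ighv5-17 at 2.85%. Among these 25, Ighv9-1 had the highest ratio of its top share to its median over the 12 libraries, 15.1. It held 9.36% of Ighv counts in KO_se replicate 1 (3161 counts) and at most 0.850% in each of the other 11 libraries (41 to 98 counts). Ighv1-4 was also at its highest there, 3.17%, with a median of 0.728%, but was at 2.56% in WT_se replicate 3, 2.48% in KO_DTH replicate 1 and 2.38% in KO_se replicate 2 as well.

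In WT_DTH replicate 1, Ighv1-85 held 6.05% of Ighv counts, with a second highest share of 2.51% and a median of 0.733%. In the same library Ighv1-47 held 3.07%, with a second highest share of 1.07% and a median of 0.339%. In KO_DTH replicate 1, Ighv5-12 held 4.46%, with a second highest share of 2.47% and a median of 0.702%. Ighv1-72 was first in both second replicates of the challenged groups, with 8.39% in KO_DTH replicate 2 and 8.89% in WT_DTH replicate 2, and held 1.84 to 5.50% in the other 10 libraries. It passed no test, with 13.1 ± 11.6 CPM in KO_DTH, 16.5 ± 4.91 CPM in KO_se, 10.8 ± 7.74 CPM in WT_DTH and 6.03 ± 0.994 CPM in WT_se. Its germline sequence is 99.3% identical to that of Ighv1-62-3 over the last 290 bases.

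Compared over all 113 segments, libraries of 1 group were about as far apart as libraries of different groups. The distance used is the percentage of Ighv counts that would have to be moved to other segments to make 2 libraries alike. It was 16.9 to 30.3% (median 21.4%) over the 12 pairs within groups and 16.2 to 33.1% (median 22.5%) over the 54 pairs between groups. KO_se replicate 1 was 28.2 to 33.1% from each of the other 11 libraries, and without it all 55 pairs lay between 16.2 and 26.7%. This library also held the most Ighv counts, the lowest evenness and the highest Jchain level, 245 CPM against 121 and 129 CPM in the other KO_se libraries. Jchain encodes the chain that links IgM and IgA into polymers and marks plasma cells.

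**Figure D3:**
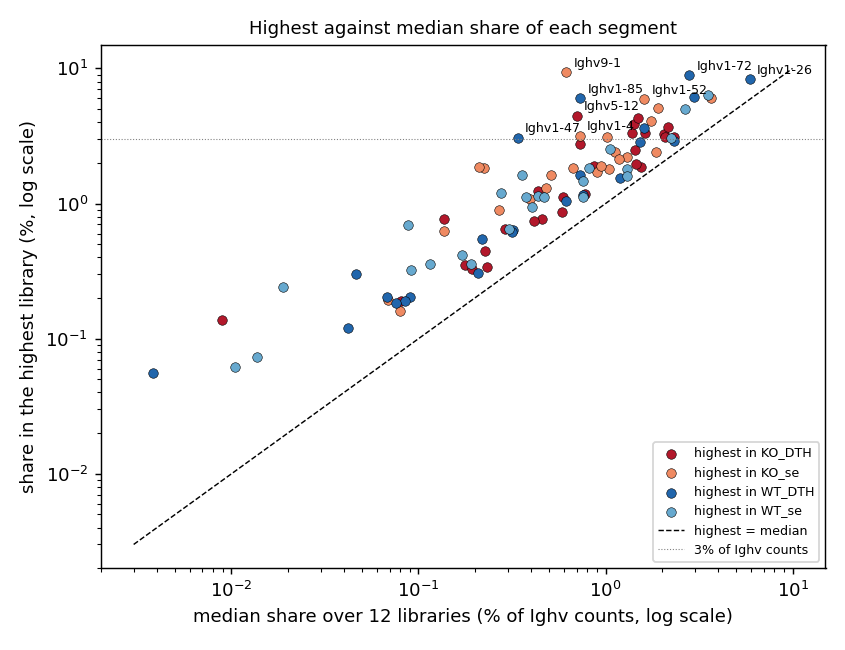
Each point is 1 segment, placed by its median share over the 12 libraries (x axis, log scale, percent of Ighv counts) and its share in the library where it was highest (y axis, log scale), coloured by the group of that library; segments with a median of 0 are not drawn. All points lie above the dashed line of equality, and Ighv9-1 has the highest top share, 9.36% against a median of 0.618%, while Ighv1-26 lies near the line.

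Single segments were tested with edgeR's quasi-likelihood test in a model over all 20034 genes with enough counts, and adjusted p-values are by the Benjamini-Hochberg method over those genes with a threshold of 0.05. Of the 113 segments 95 were tested, of which the smallest held 67 counts over the 12 libraries. Of the other 18, 8 had counts, at most 43 (Ighv8-6), and 10 had none: Ighv5-12-4, Ighv7-2, Ighv16-1, Ighv6-7, Ighv1-16, Ighv1-24, Ighv1-62-1, Ighv8-9, Ighv8-11 and Ighv8-13. Counts above 0 in all 12 libraries were found for 80 segments. A log2 fold change carries its standard error (±), and a group level in CPM its SD over 3 libraries.

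In sensitized nodes 11 of the 95 segments were higher in KO_se than in WT_se and none was lower. That is 11.6% of the segments tested, against 3.76% of all genes called higher and 1.40% called lower in this comparison. The median log2 fold change of the 95 segments was 0.93, against -0.01 for all genes, and 88 of the 95 fitted values were above 0. Ighv1-76 had the smallest p, with 10.6, 6.93 and 8.36 CPM in KO_se, against 2.59, 2.22 and 2.17 CPM in WT_se (log2 fold change 1.89 ± 0.33, adjusted p = 0.00746 by edgeR). Its 3 knockout libraries were all above the 3 wild-type libraries, and it passed in 19 of 20 alternative settings, the exception being the fit with a salivary term (adjusted p = 0.110).

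The next segments by p were also higher in all 3 KO_se libraries than in any WT_se library. Ighv8-12 had 11.5, 10.9 and 7.97 CPM in KO_se and 4.43, 2.28 and 2.62 CPM in WT_se (log2 fold change 1.70 ± 0.35, adjusted p = 0.0156 by edgeR). Ighv14-3 had 14.5, 6.13 and 3.33 CPM in KO_se and 2.74, 1.42 and 1.64 CPM in WT_se, so replicate 1 was far above the others (2.05 ± 0.45, adjusted p = 0.0206). Without KO_se replicate 1 Ighv14-3 had a log2 fold change of 1.30 and an adjusted p of 0.0734 (edgeR), a call lost. Ighv1-52 had 10.6, 26.8 and 6.18 CPM in KO_se and 3.51, 3.08 and 1.67 CPM in WT_se, with KO_se replicate 2 the highest by far. Without that library its log2 fold change was 1.62, against 2.40 ± 0.53 with it, and its adjusted p 0.0912, against 0.0215 (edgeR).

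Ighv1-39 had 8.46, 8.09 and 15.3 CPM in KO_se and 3.43, 3.16 and 4.45 CPM in WT_se (log2 fold change 1.53 ± 0.34, adjusted p = 0.0227 by edgeR). Ighv1-84 was a low segment in sensitized wild-type nodes, with 16, 0 and 5 counts in WT_se, against 303, 176 and 52 counts in KO_se. Its fitted log2 fold change of 4.17 ± 0.98 (adjusted p = 0.0299) rests on those few WT_se counts. The other 5 past the threshold were Ighv1-55, Ighv1-62-2, Ighv1-81, Ighv1-53 and Ighv1-82, at log2 fold changes of 0.89 to 1.91. Ighv1-62-2 is the segment with an identical copy.

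By position, 9 of the 11 lay among the 38 segments farthest from the constant genes (32 tested), 1 among the middle 37 (30 tested) and 1 among the nearest 38 (33 tested). The median log2 fold changes of the 3 blocks were 1.23, 0.87 and 0.76 in that order. By family, 9 of the 48 family 1 segments tested passed, with a median of 1.12, and 1 each of families 8 and 14. The count of 11 depended on single libraries. It was 5, 1 and 4 without WT_se replicates 1, 2 and 3, and 4 and 5 without KO_se replicates 1 and 2, and 0 in a fit with the level of salivary gland genes as a term, with all fits by edgeR. In that last fit 215 genes were called over the whole table, against 1035 without the term. In the fits with 1 of those libraries left out the whole table gave 427, 684, 568, 520 and 369, in the same order.

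**Figure D4:**
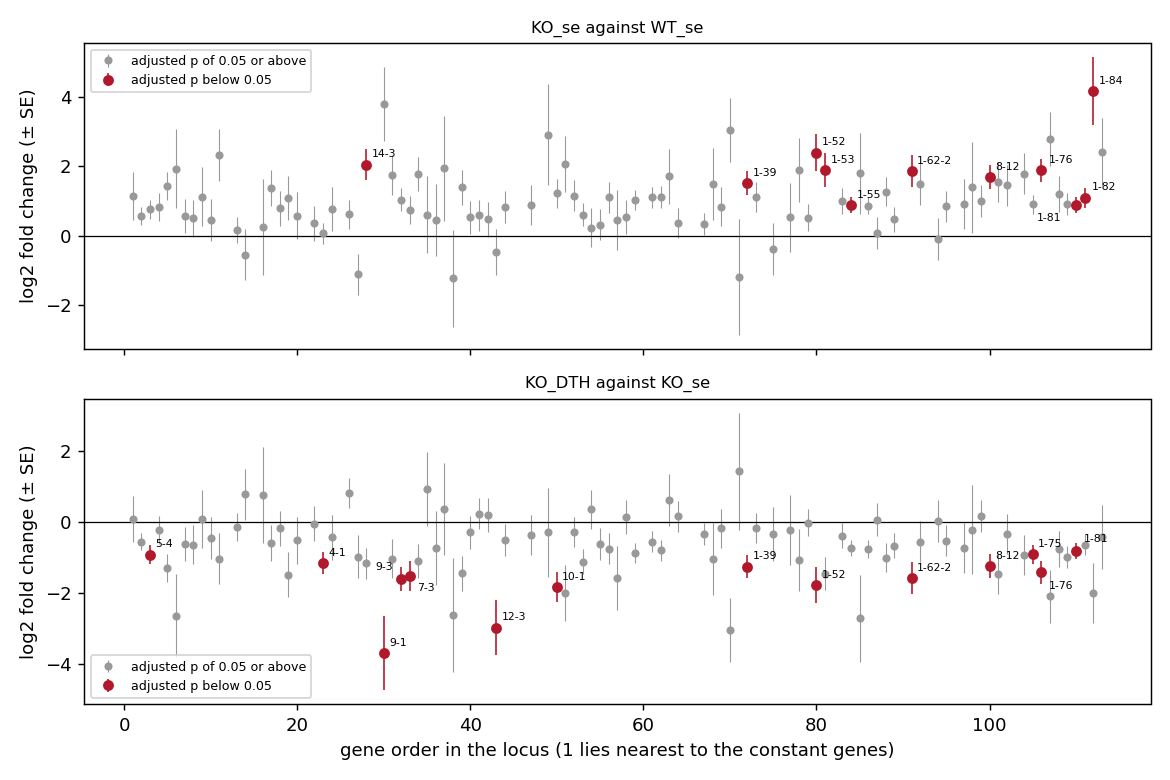
Log2 fold change with SE of each of the 95 tested segments, placed by gene order along the heavy chain locus with 1 nearest to the constant genes; the upper panel is KO_se against WT_se, the lower KO_DTH against KO_se, and red points have an adjusted p below 0.05 (edgeR). The 11 red points of the upper panel are all above 0 and 9 of them lie in the right-hand block, while the 14 of the lower panel are all below 0 and spread along the locus.

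In knockout nodes 14 of the 95 segments were lower after challenge than when sensitized and none was higher. That is 14.7% of the segments, against 3.86% of all genes called lower and 5.81% called higher in KO_DTH against KO_se. The median log2 fold change was -0.64 over the 95 segments and -0.00 over all genes. Ighv9-3, the second most abundant segment, had 6.49, 9.12 and 7.81 CPM in KO_DTH, against 33.6, 18.0 and 19.4 CPM in KO_se (log2 fold change -1.60 ± 0.33, adjusted p = 0.00952 by edgeR). Its share fell with it, to 3.46, 2.91 and 2.46% of Ighv counts in KO_DTH, against 5.56, 3.98 and 5.17% in KO_se. In wild-type nodes Ighv9-3 had 9.78, 8.04 and 7.42 CPM in WT_DTH and 15.6, 5.52 and 13.4 CPM in WT_se, which overlap (log2 fold change -0.45 ± 0.33, adjusted p = 0.398).

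Ighv1-76 was lower again, with 1.57, 3.31 and 4.87 CPM in KO_DTH, against 10.6, 6.93 and 8.36 CPM in KO_se (-1.41 ± 0.32, adjusted p = 0.0156). Ighv10-1 had 2.11, 1.54 and 2.68 CPM in KO_DTH and 10.1, 4.15 and 8.38 CPM in KO_se (-1.83 ± 0.43, adjusted p = 0.0169). Ighv12-3 had 4, 0 and 4 counts in KO_DTH and 18, 35 and 18 counts in KO_se (-2.97 ± 0.79, adjusted p = 0.0320). In each of these the 3 KO_DTH libraries were all below the 3 KO_se libraries. Ighv1-39 (-1.25 ± 0.33, adjusted p = 0.0335) and Ighv4-1 (-1.15 ± 0.31, adjusted p = 0.0343) also passed.

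The other 8 were Ighv8-12, Ighv7-3, Ighv1-81, Ighv9-1, Ighv1-52, Ighv1-62-2, Ighv5-4 and Ighv1-75. The call of Ighv9-1 rested on KO_se replicate 1, at 56.5 CPM against 2.11 and 1.80 CPM in the other KO_se libraries: without it the log2 fold change was -0.33 and the adjusted p 0.707, against -3.70 ± 1.05 and 0.0431 with it. Since this comparison and the previous one share the KO_se libraries, the 6 segments called in both (Ighv1-39, Ighv1-52, Ighv1-62-2, Ighv1-76, Ighv1-81 and Ighv8-12), which are 6 of 11 and 6 of 14, are not 2 separate observations. The count of 14 was 1 without KO_DTH replicate 1, 6 without KO_DTH replicate 2 and 6 and 7 without KO_se replicates 1 and 2. Over all genes those fits called 1039, 1243, 1427 and 1056, against 1938 in the main fit. It was 4 when only the 6 libraries compared were fitted, 7 with a term for Xist above Ddx3y and 1 with the salivary term. There 1635, 1934 and 1100 genes were called over the whole table, in the same order.

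In wild-type nodes challenge left the single segments almost without calls. Ighv1-19 was higher in WT_DTH, with 5.46, 8.04 and 4.32 CPM, against 4.15, 2.71 and 2.33 CPM in WT_se (log2 fold change 0.96 ± 0.31, adjusted p = 0.0473 by edgeR), and it passed in 8 of 20 alternatives. Dropping a single library ended its call for 8 of the 12 libraries, while 3 segments passed without WT_se replicate 1. No segment was lower. This is 1.05% of the segments, where 9.77% of all genes were called higher and 8.97% lower. The median log2 fold change of the 95 was 0.28, against -0.01 over all genes. On the TMM scale of these tests the summed Ighv level of WT_DTH was 1.21 times that of WT_se, and the groups overlapped. Beside this, 8 of 12 B cell genes were higher in WT_DTH, 8 of 8 T cell genes were lower, and 16 of 19 salivary gland genes were lower and 1 higher. Their part was not tested, apart from the fit with a salivary term, in which 0 segments passed. In that fit 266 genes were called over the whole table, against 3755 without the term.

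Between challenged nodes of the 2 genotypes no segment passed. Over all genes 0.514% were called higher and 0.0849% lower in KO_DTH against WT_DTH. By edgeR 5 of the 95 segments had an unadjusted p below 0.05, against 2832 of all 20034 genes. DESeq2 called 2 segments, against 932 of 20034 genes, so both shares were below those over all genes. The smallest p was that of Ighv12-3, with 0.0796, 0.00 and 0.0964 CPM in KO_DTH and 1.05, 0.477 and 0.650 CPM in WT_DTH (log2 fold change -3.54 ± 0.79, adjusted p = 0.0632). The median over the 95 was -0.00, against 0.01 over all genes.

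Whether challenge acted differently in the 2 genotypes was tested by the interaction term, in which no segment passed, where 1.67% of all genes were called higher and 0.439% lower. Of the 95 fitted interactions 86 were below 0, with a median of -1.07 against -0.01 over all genes. By edgeR 31 had an unadjusted p below 0.05, against 3215 of all 20034 genes. DESeq2 called 10 segments, and over all genes it called 1240, against 422 by edgeR. The smallest adjusted p over the 95 segments was 0.0521 (edgeR). Without KO_DTH replicate 3 the count was 5, without WT_se replicate 1 it was 2 and without KO_se replicate 3 it was 2. Over all genes those fits called 830, 287 and 529, against 422 in the main fit.

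Averaged over both states, 3 segments were higher and 2 lower in the knockout, 3.16% and 2.11% of the 95, near the 2.97% and 1.77% of all genes, so the counts by themselves do not stand out. The segments that were higher were Ighv14-3 (log2 fold change 1.37 ± 0.31, adjusted p = 0.0276), Ighv1-76 (0.99 ± 0.23, adjusted p = 0.0308) and Ighv1-82 (0.86 ± 0.20, adjusted p = 0.0318). They passed in 14, 9 and 10 of 19 alternatives in that order. The segments that were lower were Ighv12-3 (-2.001 ± 0.52, adjusted p = 0.0457) and Ighv11-2 (-1.63 ± 0.42, adjusted p = 0.0466). The median was 0.53, against 0.02 over all genes, so these 2 moved against most other segments. Both calls were close to the threshold: Ighv12-3 passed in 1 of 18 alternatives and Ighv11-2 in 5 of 19, with negative fold changes in all of them. Leaving out any 1 library lost the call of Ighv12-3, and leaving out any 1 but WT_se replicate 2 lost that of Ighv11-2. The count of 5 was 0 without WT_DTH replicate 1, WT_DTH replicate 2 or KO_DTH replicate 2, and 1 to 4 without any other library. With these 0 counts 433, 412 and 452 genes were called over the whole table, against 950. The averages join unlike states. Ighv1-76 averaged 8.64 CPM in KO_se and 2.33 in WT_se, but 3.25 in KO_DTH and 3.07 in WT_DTH. The log2 fold change between genotypes was -0.46 in sensitized and -3.54 in challenged nodes for Ighv12-3, and -1.10 and -2.16 for Ighv11-2. Ighv14-3 and Ighv1-82 had higher knockout means in both states.

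Among the segment shares, those of Ighv11-2 and Ighv12-3 alone did not overlap between the genotypes. Ighv11-2 held 0.0637, 0.188 and 0.144% of Ighv counts in KO_DTH, 0.148, 0.214 and 0.108% in KO_se, 0.342, 0.820 and 0.958% in WT_DTH and 0.567, 0.445 and 1.20% in WT_se. The means over 6 libraries were 0.144 ± 0.0539% in the knockout and 0.721 ± 0.328% in wild type. Ighv12-3 held 0.0425, 0 and 0.0304% in KO_DTH, 0.0533, 0.166 and 0.102% in KO_se, 0.321, 0.215 and 0.279% in WT_DTH and 0.248, 0.337 and 0.357% in WT_se, with means of 0.0658 ± 0.0595% and 0.293 ± 0.0550%. In each case all 6 knockout libraries were below all 6 wild-type libraries. These are 2 of the 103 segments with counts, or 1.94%, where 1 of 98 kappa segments (Igkv13-85), or 1.02%, separated the genotypes in the same way, and 1 of 98 kappa segments (Igkv5-37), or 1.02%, separated the states.

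On the CPM scale, where the rise of total Ighv RNA in KO_se enters, the genotypes overlapped over both states together and between sensitized nodes. Between challenged nodes they did not, though neither segment passed the test there. Ighv11-2 was at most 0.588 CPM in KO_DTH and at least 1.12 in WT_DTH, and Ighv12-3 at most 0.0964 and at least 0.477. Ighv11-2 averaged 0.389 ± 0.242 CPM in KO_DTH, 0.756 ± 0.305 in KO_se, 1.72 ± 0.565 in WT_DTH and 1.62 ± 0.992 in WT_se. Ighv12-3 averaged 0.0587 ± 0.0515 CPM in KO_DTH, 0.487 ± 0.233 in KO_se, 0.725 ± 0.292 in WT_DTH and 0.668 ± 0.123 in WT_se. These are low levels, from 6 to 127 counts per library for Ighv11-2 and 0 to 46 for Ighv12-3. For 0 counts in KO_DTH replicate 2, counting error alone allows up to 3 counts.

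**Figure D5:**
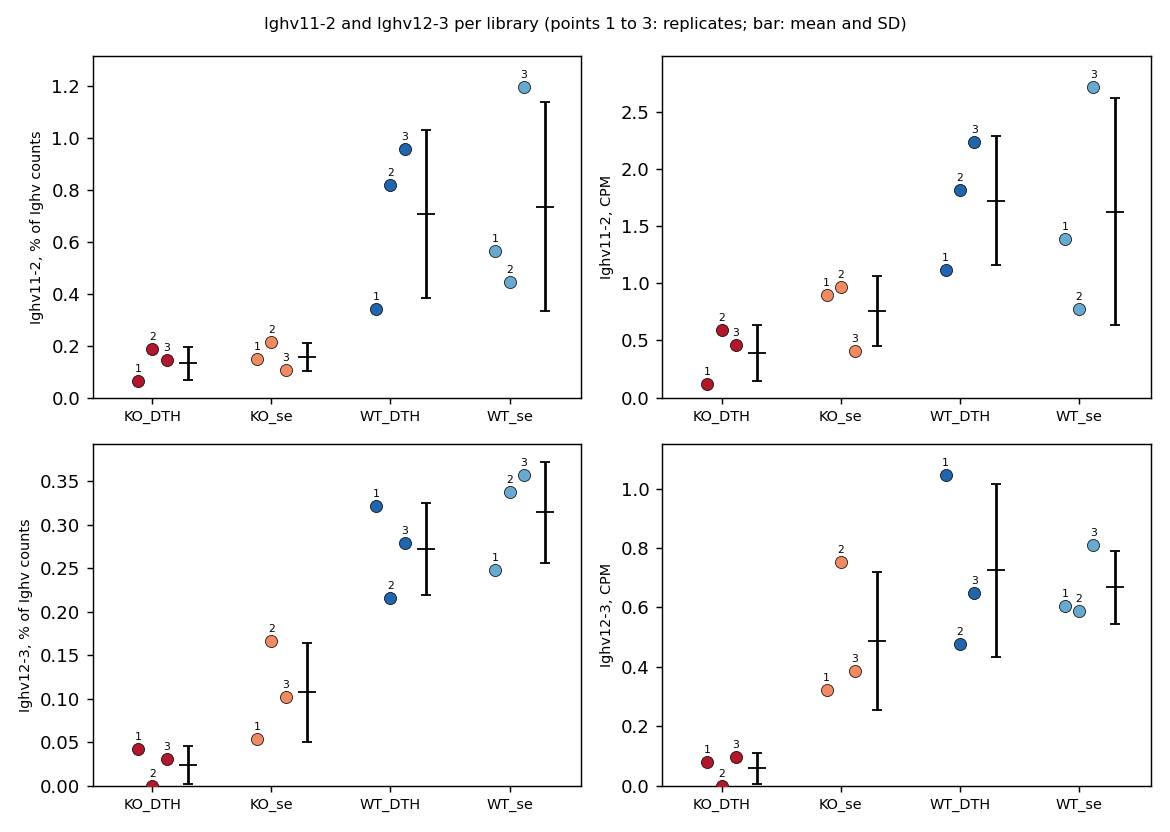
Ighv11-2 (upper row) and Ighv12-3 (lower row) in each library, as a percentage of Ighv counts (left) and in CPM (right), with points 1 to 3 for replicates and a bar for the group mean and SD. In the left panels the 6 knockout libraries lie below the 6 wild-type libraries (Ighv11-2 at most 0.214% and at least 0.342%, Ighv12-3 at most 0.166% and at least 0.215%). In the right panels the genotypes overlap in sensitized nodes, while KO_DTH lies below WT_DTH.

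The kappa segments that are known to pair with these heavy chains in phosphatidylcholine-binding B-1a cells of mice, Igkv14-126 and Igkv4-91, were looked up after the heavy chain values had been seen. Igkv14-126 averaged 3.25 ± 2.21 CPM in KO_DTH, 2.06 ± 1.34 in KO_se, 3.30 ± 0.803 in WT_DTH and 2.14 ± 1.02 in WT_se, with a log2 fold change of -0.04 ± 0.41 for the averaged genotype (adjusted p = 0.977, edgeR). Igkv4-91 averaged 4.45 ± 1.07, 8.81 ± 6.71, 3.98 ± 1.32 and 2.81 ± 1.14 CPM in the same order (0.90 ± 0.35, adjusted p = 0.173). Neither passed the test between genotypes in either state.

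Averaged over both genotypes, Ighv9-3 (log2 fold change -1.03 ± 0.23, adjusted p = 0.00709), Ighv4-1 (-0.88 ± 0.22, adjusted p = 0.0115) and Ighv10-1 (-1.15 ± 0.30, adjusted p = 0.0152) were lower in challenged than in sensitized nodes, and no segment was higher. All 3 passed in each of 19 alternatives. The count was 6 without KO_DTH replicate 3 and 5 without WT_DTH replicate 1 or KO_se replicate 3. Over all genes those fits called 3922, 3720 and 3434, against 4306 in the main fit. The 3 are 3.16% of the segments, below the 9.65% of all genes called lower, with 11.8% called higher. The only member of family 4, Ighv4-1, had 1.63, 1.52 and 1.35 CPM in KO_DTH, 3.43, 3.98 and 2.61 CPM in KO_se, 2.50, 1.51 and 2.18 CPM in WT_DTH and 4.43, 2.87 and 2.17 CPM in WT_se. Its knockout groups did not overlap and its wild-type groups did. In shares, Ighv1-20 was the 1 of 103 segments (0.971%) that separated all challenged from all sensitized libraries, with 0.211 to 0.352% in DTH and 0 to 0.142% in se. It is a low segment, with 0 to 45 counts per library, and its CPM passed no test (averaged challenge, log2 fold change 1.29 ± 0.54, adjusted p = 0.113).

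Among the constant genes, which tell the antibody class, 4 of 8 were higher in sensitized knockout nodes. Igha, the constant gene of IgA, had 224, 282 and 281 CPM in KO_se and 6.85, 7.79 and 6.72 CPM in WT_se (log2 fold change 5.20 ± 0.49, adjusted p = 0.000275). After challenge it had 34.2, 142 and 80.2 CPM in KO_DTH and 5.82, 1.80 and 3.57 CPM in WT_DTH (4.53 ± 0.48, adjusted p = 0.00125). Ighg2b (2.94 ± 0.54, adjusted p = 0.00964), Ighg2c (3.55 ± 0.94, adjusted p = 0.0485) and Ighe (1.66 ± 0.41, adjusted p = 0.0357) were the others higher in KO_se than in WT_se. Ighg2c had 267, 63.1 and 39.7 CPM in KO_se, and 8.87, 12.1 and 10.6 CPM in WT_se. Ighe had 9.37, 3.185 and 4.79 CPM in KO_se, and 2.13, 1.79 and 1.57 CPM in WT_se. Both were thus highest in KO_se replicate 1. Ighm, the gene of IgM and the most abundant of them, was not called, with 1453 ± 145 CPM in KO_se and 1062 ± 138 CPM in WT_se (0.45 ± 0.13, adjusted p = 0.0586). Jchain was higher in KO_se, with 165 ± 69.2 CPM against 34.8 ± 12.3 CPM in WT_se (2.24 ± 0.44, adjusted p = 0.0131).

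Of the marker lists set beside the segments, 3 of 12 B cell genes were higher in KO_se than in WT_se and none lower, 6 of 12 plasma cell genes were higher and 1 lower, 2 of 8 germinal centre genes were higher, 1 of 6 genes of pro-B and pre-B cells was higher, 1 of 8 T cell genes was lower and 1 of 19 salivary gland genes was higher. In KO_DTH against KO_se, 2 of 8 constant genes, 1 of 12 B cell genes, 1 of 12 plasma cell genes, 4 of 8 germinal centre genes, 2 of 6 pro-B and pre-B genes and 2 of 8 T cell genes were lower, while 1 plasma cell gene and 2 salivary genes were higher. Genes of B cell precursors, in which the segments are joined, were low but not at 0: the 6 genes summed to 11.6 to 18.2 CPM in KO_DTH, 27.4 to 32.0 in KO_se, 11.7 to 16.8 in WT_DTH and 12.6 to 14.7 in WT_se. Most of each sum was Vpreb3, so the sum does not give the level of cells joining segments. Rag1 averaged 0.943 CPM in KO_DTH, 2.44 in KO_se, 0.402 in WT_DTH and 0.743 in WT_se, and Rag2 at most 0.244. Neither was called in any comparison, nor were Vpreb1 and Igll1. Dntt, of the same list, was called lower after challenge in both genotypes by edgeR. Its log2 fold change was -1.27 ± 0.28 in WT_DTH against WT_se (adjusted p = 0.00831). In KO_DTH against KO_se it was -1.315 ± 0.28 (adjusted p = 0.0109). Between genotypes Dntt was not called in either state. The part of these cell types in the differences of single segments was not tested.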

How the data were processed

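RNA of 12 mandibular lymph node samples was sequenced, 3 in each of 4 groups taken from the labels. Total RNA was extracted with an RNeasy Mini kit and made into libraries with the NEBNext Ultra II Directional kit, per the labels. The authors deposited 1 table of estimated counts by gene, and all its values were whole numbers. Per the submitters' processing notes fastp 0.23.2, HISAT2 2.2.1, StringTie 2.2.1 and the GRCm39 build were used; how reads matching several segments were shared out is not given in the sources used here. Symbols, biotypes and gene order came from GENCODE M21 (GRCm38), which matched 52000 of the 56941 IDs; no coordinates are given, since the builds differ.

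A segment's share is its count over all Ighv counts of the library, and evenness is the Shannon entropy of the 113 shares over its maximum. Tests used edgeR 4.0.16 with its quasi-likelihood model (TMM scaling, genes kept by filterByExpr at 10 counts, 1 mean per group, all 12 libraries, 8 residual degrees of freedom, two-sided); R 4.3.3, DESeq2 1.42.0, limma 3.58.1, Python 3.11.15, pandas 2.3.3, Biopython 1.88 and matplotlib 3.10.9 were used. The fits were checked on simulated counts. The simulation gave every gene the same dispersion and no library that stood out, so it does not cover calls led by 1 library. Counting error was far below the spread: between libraries of a group chi-squared per degree of freedom over the segments was 11.6 to 77.9. Limits at 0 counts cover counting error only.

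The segments, lists and tests were chosen with earlier results of these data known. Segments named are the 10 of highest mean share, each that leads in a library, up to 6 per direction and comparison by smallest p, and the 5 of highest top share over median among those reaching 3%; further segments past the threshold are named to complete counts, and Ighv1-20, Ighv1-62-3, Ighv1-71, Ighv11-1, the kappa segments and the segments near or below a limit were named after their values were seen. Marker lists covered heavy chain constant, B cell, plasma cell, germinal centre, pro-B and pre-B cell, T cell and salivary gland genes. Alternatives were DESeq2 size factors, no filter, the DESeq2 Wald test, a filter at a mean of 50 counts, a replicate block, a salivary term, only the libraries compared and each library left out; a term for Xist above Ddx3y was added after seeing the data. Evenness was recomputed with pseudogenes, after thinning to 6523 Ighv counts, without low-count segments, and without the leading segment. The summed Ighv share of library counts was recomputed with pseudogenes, and without mitochondrial and salivary genes in the denominator. The shares of single segments were not recomputed.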

Additional observations from a re-analysis of the deposited data

Results flagged for a closer look

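As a share of all counts, the summed Ighv level differed with challenge in opposite directions in the genotypes: every KO_DTH library was below every KO_se library and every WT_DTH library above every WT_se library. The change in the knockout minus that in wild type was -0.0310 percentage points of all counts, and this difference was not tested, as a sum over members. On the TMM scale the wild-type groups overlapped. Relative to B lineage RNA the means were lower after challenge in both genotypes: per 100 B cell counts 8.10 in KO_DTH and 13.9 in KO_se, and 7.27 in WT_DTH and 9.32 in WT_se. Per 100 constant gene counts 11.9 in KO_DTH and 15.4 in KO_se, and 11.6 in WT_DTH and 13.2 in WT_se. In wild type, salivary gland genes took 2.27% of counts in WT_DTH and 9.55% in WT_se. Mitochondrial transcripts there took 5.29% in WT_DTH and 17.3% in WT_se. With the counts of both left out of the denominator, the wild-type groups overlapped, whereas KO_DTH stayed below KO_se without overlap. The opposite moves without overlap thus held for the share of all counts only, and the part of these genes was given no test.

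The same pattern of opposite, non-overlapping moves was seen in CPM for 2 of the 95 tested segments (2.11%), against 0 of 93 tested kappa segments and 265 of all 20034 tested genes (1.32%), or 115 (0.574%) in the same direction, lower in KO_DTH and higher in WT_DTH. Nothing particular to the segments is read from 2 cases. For Ighv1-76 the change in the knockout minus that in wild type was -6.13 CPM, and the interaction term of edgeR gave a log2 value of -1.81 ± 0.46 with an adjusted p of 0.0605. For Ighv1-19 it was -5.70 CPM, with an interaction of -1.75 ± 0.44 and an adjusted p of 0.0569. Neither passed the threshold of 0.05. KO_se holds more Ighv RNA than the other groups, and salivary gland genes differ between these groups too, so both stand beside these values; their part was not tested for these segments.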

How the results depend on the processing

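All 40 alternatives for the evenness differences and all 32 for the share of library counts moved the value by less than the spread between libraries. For evenness this measure cannot show stability, since each main difference was itself smaller than that spread. For KO_se minus WT_se it was -0.0126 against a pooled SD of 0.0163, so a difference that vanished would also count as unmoved. For the share of library counts, a shift below the spread can still change whether groups overlap. WT_DTH and WT_se overlapped once mitochondrial and salivary counts were left out of the denominator, and this too counted as unmoved. Of the counts of segments called, 83 were within 1.5 times the value reported and 54 were not, and of the single segments named 289 values stayed past the threshold, 121 did not and 0 changed sign.

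The DESeq2 Wald test called 3 in WT_DTH against WT_se (1 in edgeR), 27 in KO_se against WT_se (11), 2 in KO_DTH against WT_DTH (0), 10 in the interaction (0), 12 for the averaged genotype (5) and 6 for the averaged challenge (3). Over all genes it called 4557 (3755 in edgeR), 2301 (1035), 932 (120), 1240 (422), 1984 (950) and 5130 (4306) in the same order. With no filter the counts were 0 in WT_DTH against WT_se, 5 in KO_DTH against KO_se (14) and 3 for the averaged genotype (over all genes 3251, 1470 and 601). A mean of at least 50 counts gave 18 in KO_se against WT_se and 1 in the interaction (1313 and 471). With only the libraries compared the counts were 0 in WT_DTH against WT_se and 4 in KO_DTH against KO_se (3348 and 1635). With a salivary term they were 0, 1 and 0 in WT_DTH against WT_se, KO_DTH against KO_se and KO_se against WT_se, and 5 for the averaged challenge (266, 1100, 215 and 3101). The term for Xist above Ddx3y gave 7 in KO_DTH against KO_se (1934).

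Leaving out each library gave 0 to 3 in WT_DTH against WT_se, 1 to 14 in KO_DTH against KO_se, 1 to 13 in KO_se against WT_se, 0 in KO_DTH against WT_DTH, 0 to 5 in the interaction, 0 to 4 for the averaged genotype and 3 to 6 for the averaged challenge. Over all genes the ranges were 2566 to 3890, 1039 to 2035, 369 to 1100, 14 to 471, 0 to 830, 412 to 1012 and 3434 to 4017 in the same order. The cause was not tested.

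Over all genes, libraries of the same replicate number did not deviate together (correlation of deviations from the group mean -0.0984 to 0.141, median 0.00308, over 18 pairs), and the labels tie the numbers to no animal, litter or day, so the block was kept as an alternative. The numbers do run along with Xist, low in replicate 1 and high in replicate 3 of all 4 groups, so the block and the Xist term overlap. With a replicate block the counts were 0 in WT_DTH against WT_se, 6 in KO_DTH against KO_se and 2 for the averaged genotype, and the other counts moved by less than 1.5 times. Over all genes the block gave 3400, 1729 and 776 in those comparisons.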
